A study of Mus musculus with 5 samples.

Results

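The genes described here are 6 Mas-related G protein-coupled receptors (Mrgprs) of the mouse, Mrgprd, Mrgpra3, Mrgprb4, Mrgprb5, Mrgprx1 and Mrgpre. They were chosen by name, and all 6 had a row among the 17267 rows of the count matrix that name a mouse gene. Their transcripts were counted in 3352 single cells of lumbar dorsal root ganglia (DRG) from 5 wild-type C57BL/6 mice, 3 males and 2 females aged 18 weeks, all untreated and of 1 group. Every cell carries the authors' label of a type, and there are 12 neuron types beside satellite glia and endothelial cells, 14 in all. The comparisons are therefore between cell types within mice. The cell names carry 5 library identifiers, which no label ties to a sample, and each was taken as 1 mouse without a sex. Libraries 1 to 5 held 164, 539, 474, 805 and 1370 cells, with 13050375 to 88886919 UMIs (unique molecular identifiers, each marking 1 captured transcript) and a median of 52499.5 to 72840 UMIs per cell. Of the barcodes, 7 occurred in more than 1 library, in 14 cells. Cells of 1 type in 1 library were summed, and levels are given as CPM, the UMIs of a gene in every 1000000 UMIs of that sum. The assay reads the 3′ end of transcripts, so CPM was compared between types for 1 gene and not between genes. With 5 libraries, an exact two-sided sign-flip test cannot give a p below 0.063.

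Mrgprs are receptors of the rhodopsin class that are found mainly on small-diameter sensory neurons. Many of them couple to Gq and phospholipase C, which release calcium and act on channels such as TRPA1, and several respond to compounds that cause itch. In mouse DRG they mark the non-peptidergic (NP) C-fibres: Mrgprd, a receptor for β-alanine, marks mechanically sensitive nociceptors of the skin, and Mrgpra3, a receptor for chloroquine, marks itch neurons. Mrgprx1, also named Mrgprc11, responds to the peptide BAM8-22. Mrgprb4 is known from C-fibres that respond to stroking, its close relative Mrgprb5 has no well-established ligand, and Mrgpre is an orphan receptor. The NP types here are NP_Mrgprd, NP_Mrgpra3 and NP_Nts, the last being the neurons with somatostatin and natriuretic peptide B. Since the labels of the types rest on the same UMIs, p-values between types give the size of a difference against the spread between libraries and are not independent evidence of the types. For Mrgprd and Mrgpra3 no test is given in a comparison with the type named after them.

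All 6 genes lie on chromosome 7 (mm10; gene models of GENCODE vM21), in 2 separate regions. Mrgpra3 (chr7:47588950-47601372), Mrgprx1 (chr7:48020971-48027597), Mrgprb5 (chr7:48167983-48169019) and Mrgprb4 (chr7:48198070-48199288), all on the minus strand, fall within 610339 bases. Mrgpre (chr7:143778363-143784500, minus strand) and Mrgprd (chr7:145314835-145324086, plus strand) are 1530334 bases apart on the same chromosome. Mrgprb4 and Mrgprb5 are models of 1 exon, and the other receptors have 2 exons. The modelled 3′ UTR had 34 bases in Mrgprb5, 58 in Mrgprx1, 143 in Mrgprb4, 237 in Mrgpra3, 1727 in Mrgprd and 2469 in Mrgpre. The authors counted UMIs on a UCSC gene model, whose 3′ ends were not compared with these lengths. Reads that end beyond the model used for counting are not counted, and the part this had in the counts was not tested. Of all 55-base stretches in the last 500 bases of a transcript, the length of the reads, 6.73% were shared with another gene for Mrgprx1, 1.57% for Mrgpra3, 0.673% for both Mrgprb4 and Mrgprb5, and 0% for Mrgprd and Mrgpre.

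Mrgprb4 and Mrgprb5 are neighbours 29050 bases apart with closely related upstream sequence, and they had 2 and 217 UMIs in all cells, so their upstream stretches are shown together. The sequences are from the RefSeq promoter windows (GRCm38.p6, minus strand), with the 30 of 140 positions that differ between both genes in capitals. They run 5′ to 3′ and lie at chr7:48169096-48169235 for Mrgprb5 and at chr7:48199289-48199428 for Mrgprb4, which ends at the base before the modelled start of Mrgprb4 and 76 bases before that of Mrgprb5.
Mrgprb5: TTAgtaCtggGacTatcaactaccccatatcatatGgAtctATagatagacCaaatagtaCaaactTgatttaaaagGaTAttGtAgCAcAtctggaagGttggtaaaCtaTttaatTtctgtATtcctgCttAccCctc
Mrgprb4: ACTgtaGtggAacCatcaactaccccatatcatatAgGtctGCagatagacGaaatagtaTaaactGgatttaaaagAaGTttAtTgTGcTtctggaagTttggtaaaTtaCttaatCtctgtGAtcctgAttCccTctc
The stretches were 78.6% identical, and the whole windows of 300 bases were 82% identical. Those windows, 250 bases before and 50 after a start, reach past the modelled start into the 5′ UTR and coding sequence. The 82% is therefore not of upstream sequence alone. Of the other members, Mrgpra3 has no window in the table.

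Mrgprd and Mrgpra3 were the most restricted of the well-detected receptors, Mrgpre was found in every neuron type, and Mrgprb5 and Mrgprx1 gave few UMIs that lay mostly in the NP neurons. In all cells there were 21566 UMIs of Mrgprd, 4823 of Mrgpra3, 2227 of Mrgpre, 217 of Mrgprb5, 129 of Mrgprx1 and 2 of Mrgprb4. The 3 NP types held 99.1% of the UMIs of Mrgprd, 99.0% of those of Mrgpra3, 100% of those of Mrgprb5, 82.9% of those of Mrgprx1 and 40.8% of those of Mrgpre. These shares depend on how many cells of each type were captured and on their depth. There were 900 cells of NP_Mrgprd, 400 of NP_Nts and 104 of NP_Mrgpra3. Their median depths were 105150, 53136 and 88652 UMIs per cell, beside 57691.5 over all cells.

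**Figure D1:**
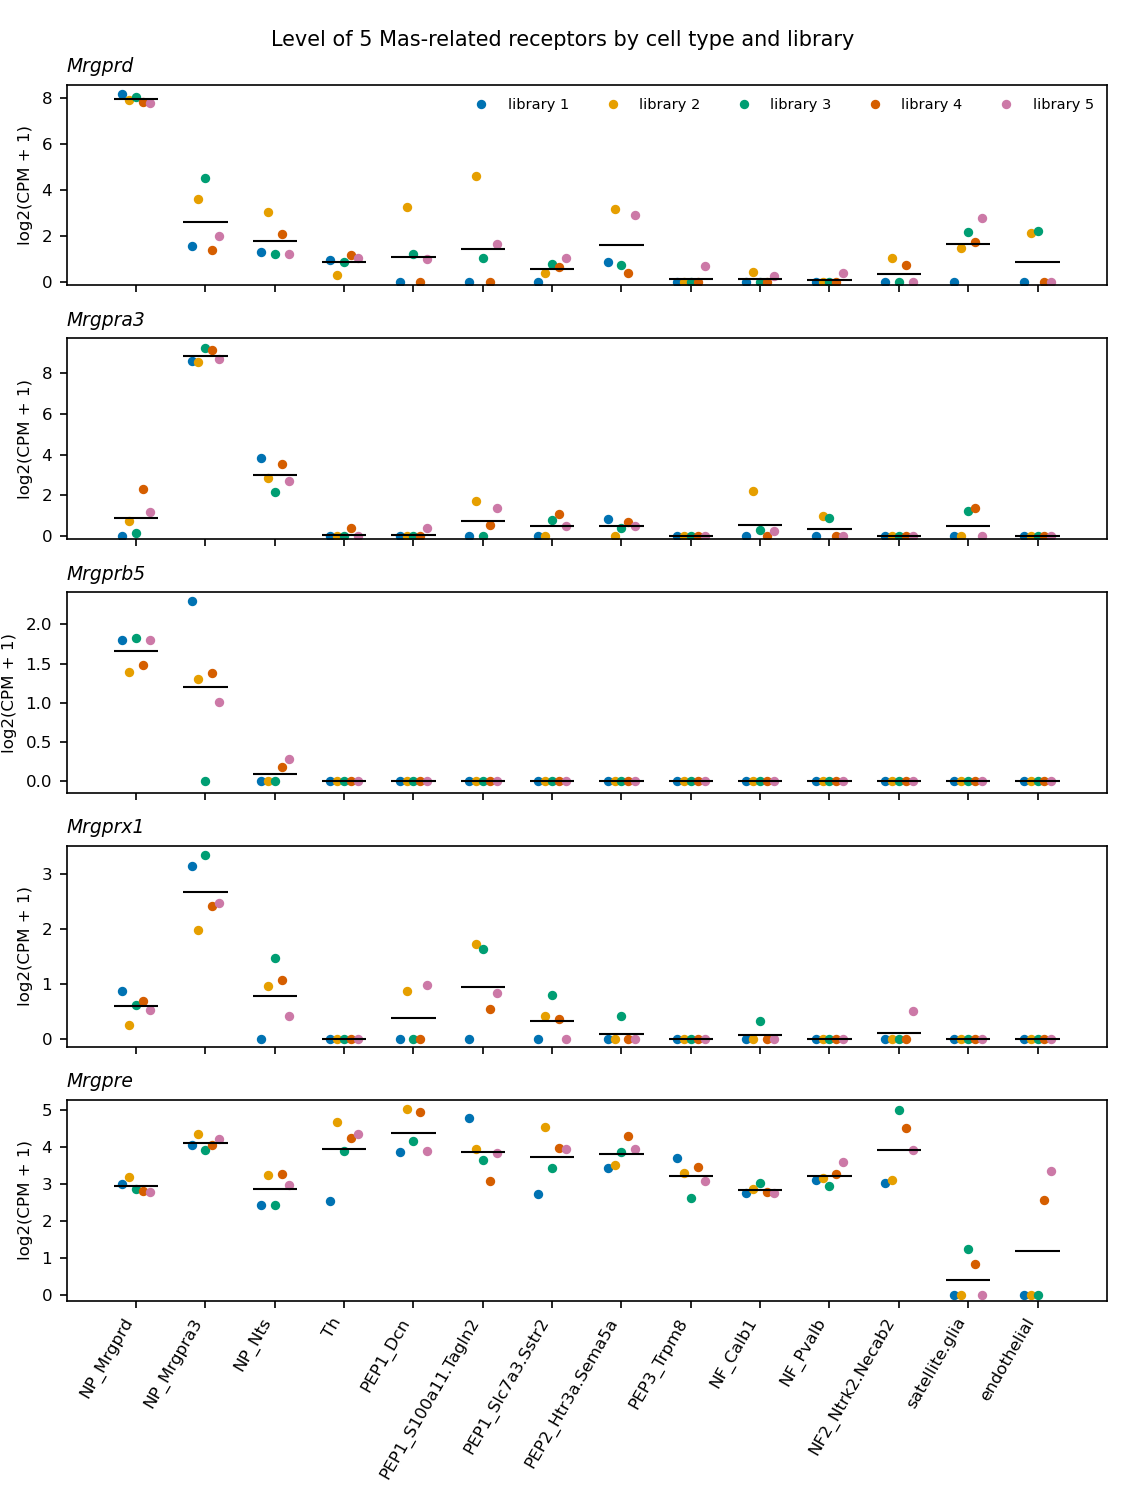
Level of 5 receptors, as log2(CPM + 1) of summed UMIs, in the 14 types; each point is 1 of the 5 libraries and each line their mean. Mrgprd and Mrgpra3 each stand far above all other types in the type that carries their name, while Mrgpre lies between 2 and 6 on this scale in all neuron types and libraries.

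In the mechanically sensitive NP_Mrgprd neurons, the level of Mrgprd was 286, 240, 259, 223 and 220 CPM in libraries 1 to 5, a mean of 245 ± 27.4 (SD, n = 5). The libraries varied little, and the lowest was far above every library of every other type. A UMI of Mrgprd was found in 886 of the 900 cells, or 98.4%, and in 95.3 to 100% of the cells of a library. A cell held a median of 22 UMIs, with quartiles of 15 and 31 and a maximum of 93. The 14 cells without one were shallow, with a median of 23983.5 UMIs of all genes against 105808 in the cells with Mrgprd. These values describe the gene for which the type was named and are no test of it.

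Outside this type the level of Mrgprd was low and uneven between libraries. The next type was NP_Mrgpra3, at 1.96, 11.1, 21.7, 1.59 and 3.02 CPM (mean 7.88 ± 8.67, SD, n = 5). There followed PEP1_S100a11.Tagln2 at 5.27 ± 10.1, PEP2_Htr3a.Sema5a at 3.24 ± 3.67, NP_Nts at 2.88 ± 2.49, satellite glia at 2.68 ± 2.14, PEP1_Dcn at 2.18 ± 3.65 and endothelial cells at 1.40 ± 1.92 (SD, n = 5). Single libraries set several of these means: without library 2 the mean was 0.790 CPM in PEP1_S100a11.Tagln2, 2.08 in PEP2_Htr3a.Sema5a, 1.82 in NP_Nts and 0.568 in PEP1_Dcn, and without library 3 it was 4.41 in NP_Mrgpra3. The other 6 types had means from 0.0609 CPM in NF_Pvalb to 0.869 in Th. None of the neighbours below NP_Mrgprd in this order differed beyond the spread between libraries, with sign-flip p from 0.1875 to 1 and overlapping libraries in each of these pairs (exact test, two-sided).

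Most UMIs outside NP_Mrgprd came from a few cells. Of the 305 UMIs of Mrgprd outside NP_Mrgprd, 192 lay in 10 cells with at least 10 UMIs each, whose median depth was 122452 UMIs. In PEP1_S100a11.Tagln2, 2 such cells held 50 of the 59 UMIs, and in PEP2_Htr3a.Sema5a 3 cells held 61 of 68. Cells that hold RNA of 2 cells were not called here, and their part in these counts was not tested. Satellite glia were taken as the background type, in which 4.82% of the 249 cells (exact 95% interval 2.51 to 8.27%) had a UMI of Mrgprd at a median depth of 17729 UMIs. Whether those UMIs came from free RNA was not tested. After thinning every cell to 10000 UMIs, the expected share was 2.72% in glia, 3.39% in NP_Mrgpra3 and at most 2.12% in every other type but NP_Mrgprd. NP_Mrgprd stood at 86.9% at that depth. Below NP_Mrgprd, only the share of NP_Mrgpra3 was above that of the glia.

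In NP_Mrgpra3, the itch neurons named for it, Mrgpra3 reached 390, 370, 611, 556 and 413 CPM in libraries 1 to 5 (mean 468 ± 108, SD, n = 5). All libraries were high, although library 1 rests on 4 cells. A UMI was found in 98 of 104 cells, or 94.2%, with a median of 41 UMIs per cell and a maximum of 117. The 6 cells without one had a median depth of 39997.5 UMIs, against 88944.5 in the others.

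The second type for Mrgpra3 was NP_Nts, where the libraries had 13.2, 6.17, 3.53, 10.8 and 5.55 CPM (mean 7.83 ± 3.98, SD, n = 5). Here the UMIs were spread over many cells with low counts: 97 of 400 cells, or 24.2%, had a UMI, 14.6 to 40% in a library, and none had 10 or more. In NP_Mrgprd the levels were 0, 0.684, 0.134, 4.06 and 1.27 CPM, and 52 of 900 cells, or 5.78%, had a UMI. There 2 cells held 73 of the 149 UMIs, and 81 of the 149 were from library 4, without which the mean fell from 1.23 to 0.523 CPM. NP_Nts was above NP_Mrgprd in each of the 5 libraries, while the ranges over libraries overlapped. In the edgeR quasi-likelihood test, Mrgpra3 was 4.22-fold lower in NP_Mrgprd than in NP_Nts (log2 fold change -2.08 ± 0.482, SE, n = 5 libraries, Benjamini-Hochberg adjusted p = 0.000871). Of 10424 genes tested, 11.3% were called lower in this contrast, where a call is an adjusted p under 0.01 and a change of at least 2-fold.

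The share of NP_Nts cells with Mrgpra3 was 6.56% after thinning to 10000 UMIs, against 0.871% in satellite glia and 1.02% in NP_Mrgprd. In the other types the mean level of Mrgpra3 was between 0 CPM, in NF2_Ntrk2.Necab2, PEP3_Trpm8 and endothelial cells, and 0.872 CPM, in PEP1_S100a11.Tagln2. A count of 0 in 58 cells of NF2_Ntrk2.Necab2 allows a level of up to 0.524 CPM. Among these types no neighbours in the order differed beyond the spread of the libraries (exact sign-flip p from 0.5 to 1).

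**Figure D2:**
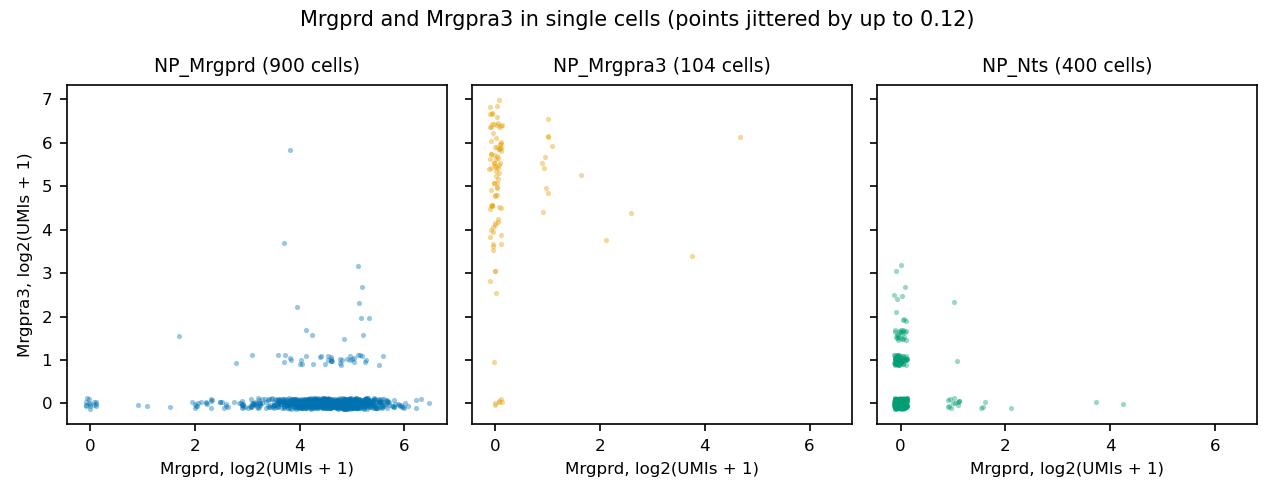
UMIs of Mrgprd (horizontal) and of Mrgpra3 (vertical) in single cells of the 3 NP types, both as log2(UMIs + 1) with a small jitter; each point is a cell. The cells of NP_Mrgprd lie along the horizontal axis and those of NP_Mrgpra3 along the vertical, and most NP_Nts cells hold neither receptor.

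Few cells carried both receptors at more than trace counts. At 5 or more UMIs of each, both were found in 4 of 900 cells of NP_Mrgprd, 3 of 104 cells of NP_Mrgpra3 and 0 of 400 cells of NP_Nts, which allows a share of up to 0.75% of the last. At 1 or more UMIs, both were found in 52, 15 and 2 cells of these types. In NP_Nts, 95 cells had Mrgpra3 without Mrgprd, 18 had Mrgprd without Mrgpra3 and 285 had neither. Between NP_Mrgpra3 and NP_Nts, the level of Mrgprd was not called different, with a log2 fold change of 1.43 ± 0.567 (SE, n = 5, edgeR adjusted p = 0.0452).

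Mrgprx1 followed Mrgpra3 at a far lower count. In NP_Mrgpra3 it had 4, 4, 11, 11 and 18 UMIs in libraries 1 to 5, or 7.83, 2.96, 9.20, 4.38 and 4.53 CPM (mean 5.78 ± 2.62, SD, n = 5). All 5 values were above every library of every other type. The next types were PEP1_S100a11.Tagln2 at 1.14 ± 1.02 CPM, NP_Nts at 0.830 ± 0.689, NP_Mrgprd at 0.517 ± 0.236, PEP1_Dcn at 0.358 ± 0.494 and PEP1_Slc7a3.Sstr2 at 0.272 ± 0.306 (SD, n = 5). NF2_Ntrk2.Necab2, PEP2_Htr3a.Sema5a and NF_Calb1 had 1 UMI each, and NF_Pvalb, PEP3_Trpm8, Th, satellite glia and endothelial cells had none. Between NP_Mrgpra3 and PEP1_S100a11.Tagln2 the paired difference in log2(CPM + 1) was 1.72 ± 1.03 (SD, n = 5), higher in 5 of 5 libraries (exact sign-flip p = 0.063, the smallest possible). The types below it did not differ from their neighbours beyond the spread (exact sign-flip p from 0.4375 to 1).

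Mrgprx1 passed the filter on low counts through its level in NP_Mrgpra3, so the sizes from the filtered fits are given without a test. It was 15.2-fold higher in NP_Mrgpra3 than in all other cells (log2 fold change 3.93 ± 0.337, SE, n = 5), 10.9-fold lower in NP_Mrgprd than in NP_Mrgpra3 (-3.44 ± 0.404) and 6.78-fold higher in NP_Mrgpra3 than in NP_Nts (2.76 ± 0.462). In a fit of all genes without that filter, the log2 fold change was -3.39 ± 0.432 between NP_Mrgprd and NP_Mrgpra3 (SE, n = 5, edgeR adjusted p = 3.23e-07) and 2.74 ± 0.489 between NP_Mrgpra3 and NP_Nts (SE, n = 5, edgeR adjusted p = 5.11e-05). Between NP_Mrgprd and NP_Nts it was not called different there, at -0.65 ± 0.515 (SE, edgeR adjusted p = 0.331).

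At full depth, 33 of the 104 NP_Mrgpra3 cells had a UMI of Mrgprx1, or 31.7%, and 28.6 to 50% of the cells of a library did. In NP_Mrgprd the share was 4.22%, in NP_Nts 3.75%, and in satellite glia 0 of 249 cells, which allows up to 1.2%. Thinned to 10000 UMIs, the share in NP_Mrgpra3 was 4.91%. Within NP_Mrgpra3, a UMI of Mrgprx1 was found in 32 of 98 cells with Mrgpra3 and in 1 of 6 cells without it. Those 6 cells are too few and too shallow for a comparison.

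Mrgprb5 was found in NP neurons alone. In NP_Mrgprd it had 12, 26, 19, 36 and 109 UMIs in libraries 1 to 5, or 2.49, 1.62, 2.54, 1.80 and 2.48 CPM (mean 2.19 ± 0.440, SD, n = 5). In NP_Mrgpra3 there were 2, 2, 0, 4 and 4 UMIs, or 3.92, 1.48, 0, 1.59 and 1.01 CPM (mean 1.60 ± 1.44, SD, n = 5), and without library 1 the mean was 1.02 CPM. In NP_Nts there were 3 UMIs, in libraries 4 and 5, at a mean of 0.0720 ± 0.103 CPM. The levels of NP_Mrgprd and NP_Mrgpra3 overlapped, and the libraries of NP_Mrgprd were all above those of NP_Nts. The paired difference between NP_Mrgprd and NP_Mrgpra3 was 0.46 ± 0.887 in log2(CPM + 1) (SD), higher in 4 of 5 libraries (exact sign-flip p = 0.3125). Between NP_Mrgpra3 and NP_Nts it was 1.10 ± 0.843, higher in 4 of 5 libraries (exact sign-flip p = 0.125).

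The other 11 types had no UMI of Mrgprb5. The limits that 3 UMIs would give ranged from 0.181 CPM in PEP2_Htr3a.Sema5a to 3.19 CPM in endothelial cells, so a level like that of NP_Mrgprd is below the limit for endothelial cells. Against all other cells, Mrgprb5 was 21.7-fold higher in NP_Mrgprd (log2 fold change 4.44 ± 0.379, SE, n = 5), a size given without a test because the gene passed the filter through NP_Mrgprd. It did not pass the filter on low counts in the contrasts between the NP types. Without that filter, it was not called different between NP_Mrgprd and NP_Mrgpra3 (log2 fold change 0.80 ± 0.439, SE, edgeR adjusted p = 0.214) and was higher in NP_Mrgprd than in NP_Nts by 3.96 ± 0.551 (SE, edgeR adjusted p = 6.06e-07). From 12 UMIs in NP_Mrgpra3 and 3 in NP_Nts, it was higher in NP_Mrgpra3 by 3.16 ± 0.755 (SE, edgeR adjusted p = 0.00154).

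A UMI of Mrgprb5 was found in 169 of 900 NP_Mrgprd cells, or 18.8%, with at most 3 in a cell. In NP_Mrgpra3 the share was 10.6% (11 of 104 cells) and in NP_Nts 0.75% (3 of 400). Within NP_Mrgprd, the cells with Mrgprb5 were somewhat deeper, with a median of 115751 UMIs against 102804 in the cells without. A UMI of Mrgpre was present in 46.7% of the former and 44.7% of the latter, and of Mrgpra3 in 8 and 44 cells. These shares are a description over cells, without a test.

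Mrgprb4 could not be measured. Its 2 UMIs were in 1 cell of NP_Mrgprd and 1 cell of NP_Nts, both from library 5, and each of the other 12 types had 0. Over all cells 3 UMIs correspond to 0.0134 CPM, and in NP_Mrgprd the 1 UMI gives 0.0108 CPM (exact 95% Poisson interval 0.000274 to 0.0604 CPM). The interval and the limit cover counting error only, and whether reads of Mrgprb4 were lost before the gene table was not tested.

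Mrgpre differed from the other members in that all 12 neuron types expressed it, at mean levels from 6.17 to 21.2 CPM. The highest was PEP1_Dcn, a peptidergic type, at 13.7, 31.6, 16.9, 29.9 and 13.9 CPM (mean 21.2 ± 8.83, SD, n = 5). NP_Mrgpra3 was second and much more even, at 15.7, 19.2, 14.2, 15.5 and 17.6 CPM (mean 16.4 ± 1.96). NF2_Ntrk2.Necab2 was at 16.3 ± 10.1 CPM, Th at 16.1 ± 7.38, PEP1_S100a11.Tagln2 at 14.6 ± 7.17, PEP2_Htr3a.Sema5a at 13.4 ± 3.60 and PEP1_Slc7a3.Sstr2 at 13.4 ± 6.29, each over the 5 libraries. The low neuron types were PEP3_Trpm8 at 8.66 ± 2.61, NF_Pvalb at 8.40 ± 1.60, NP_Mrgprd at 6.68 ± 0.904, NP_Nts at 6.58 ± 2.12 and NF_Calb1 at 6.17 ± 0.579. The spread was wide in several types, with Th at 4.82 CPM in library 1 and 24.5 in library 2. In no pair of neighbours in this order did the difference exceed the spread between libraries (exact sign-flip p from 0.125 to 1). Neighbours in an order of means lie close, so this does not hold for types further apart. Of the 66 pairs of neuron types, 15 had libraries that did not overlap, and the share for other genes was not calculated.

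**Figure D3:**
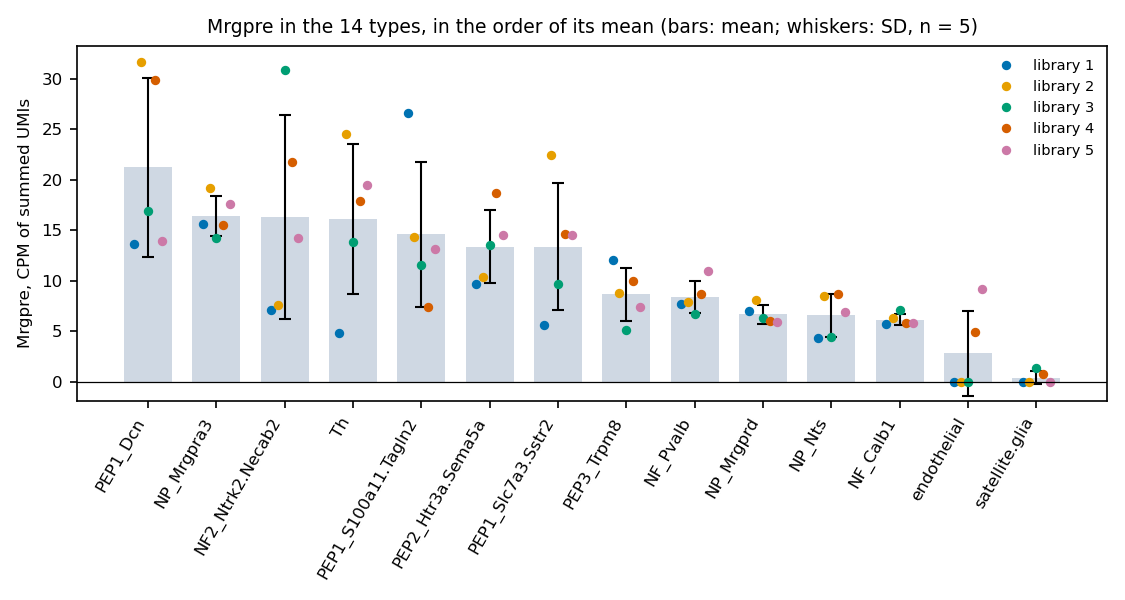
Mrgpre in CPM of summed UMIs in the 14 types, from the highest mean to the lowest; bars are means, whiskers the SD over 5 libraries and points the libraries. The means fall gradually from 21.2 CPM in PEP1_Dcn to 6.17 in NF_Calb1, with overlapping libraries between neighbours, and satellite glia are lowest at 0.436.

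Satellite glia had 3 UMIs of Mrgpre in 249 cells (mean 0.436 ± 0.633 CPM) and endothelial cells had 2 UMIs in 56 cells (mean 2.84 ± 4.17 CPM). In glia it was 13.6-fold lower than in the other cells (log2 fold change -3.77 ± 0.516, SE, n = 5, edgeR adjusted p = 4.28e-06), in a contrast where 32.5% of 12148 genes were called lower. Of the 14 types, PEP1_Dcn alone was called higher for Mrgpre against all other cells, 2.37-fold (1.25 ± 0.222, SE, edgeR adjusted p = 0.000438), where 6.87% of 12006 genes were called higher. The size in NP_Mrgpra3 was just short of 2-fold (0.97 ± 0.169, SE, edgeR adjusted p = 0.000311), and it passed the fold when library 2 or library 4 was left out, at 1.04 and 1.02. Th was also short of the fold alone, at 0.93 ± 0.231 (SE, edgeR adjusted p = 0.00373). NF2_Ntrk2.Necab2, at 0.85 ± 0.277 (SE, edgeR adjusted p = 0.0189), was short of both thresholds.

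Within the NP neurons, Mrgpre was higher in NP_Mrgpra3 than in both other types, and the libraries did not overlap. It was 2.51-fold lower in NP_Mrgprd than in NP_Mrgpra3 (log2 fold change -1.33 ± 0.172, SE, n = 5, edgeR adjusted p = 2.25e-06), where 7.14% of genes were called lower, and 2.54-fold higher in NP_Mrgpra3 than in NP_Nts (1.34 ± 0.193, SE, edgeR adjusted p = 6.86e-06), where 8.9% were called higher. NP_Mrgprd had 7.06, 8.09, 6.29, 6.01 and 5.94 CPM and NP_Nts had 4.38, 8.54, 4.41, 8.70 and 6.88 CPM. Those ranges overlapped, and the difference was 0.02 ± 0.174 (SE, edgeR adjusted p = 0.949).

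The share of cells with a UMI of Mrgpre was 86.2% in NF2_Ntrk2.Necab2, 76.9% in NP_Mrgpra3, 60.7% in PEP2_Htr3a.Sema5a, 57.1% in PEP1_Dcn and 45.1% in NP_Mrgprd, where the median depths were 96530.5, 88652, 73919, 49516 and 105150 UMIs. After thinning to 10000 UMIs, the shares were 15.5%, 16.8%, 13.4%, 17.8% and 6.56%. Satellite glia were at 1.2% before and 0.864% after thinning.

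**Figure D4:**
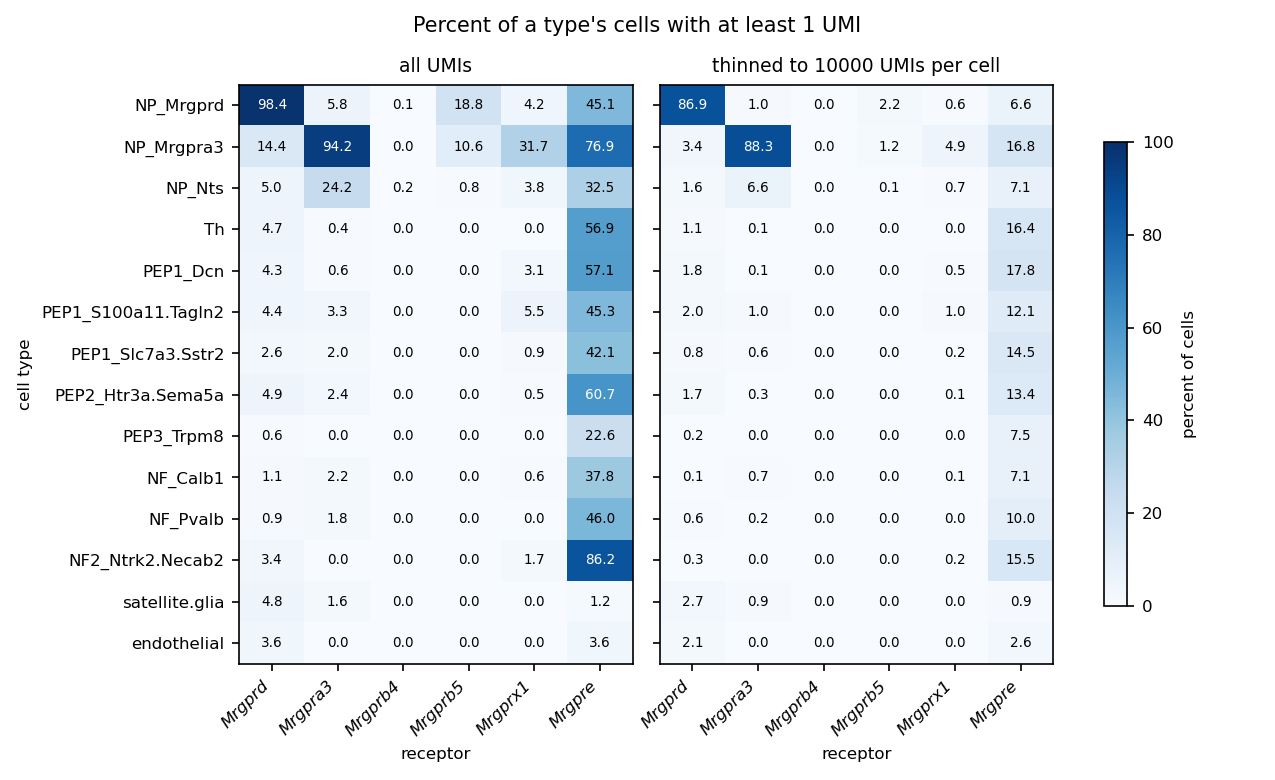
Percent of the cells of each type (rows) with at least 1 UMI of a receptor (columns), with all UMIs on the left and as calculated after thinning each cell to 10000 UMIs on the right; darker means a larger percent. Mrgprd in NP_Mrgprd and Mrgpra3 in NP_Mrgpra3 stay above 86% after thinning, whereas the share of Mrgpre falls below 18% in all types.

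The genes with the most similar pattern over the 14 types were sought among genes of at least 100 UMIs, by Pearson's r of the mean log2(CPM + 1) over 14 types. The points share libraries and depth, and the values are a description. For Mrgprd they were Hnf4g (r = 0.962), Otoa (0.953) and Klk5 (0.945). For Mrgpra3 they were Tmprss11c (0.954), Mrgprx1 (0.941) and Lrrn4 (0.926), and for Mrgprx1 they were Tmprss11c (0.966), Mrgpra3 (0.941) and B3gnt6 (0.918). Mrgprb5 was most like Klk5 (0.971), Slc16a12 (0.969) and Tmem114 (0.964). Mrgpre was most like S100a10 (0.930), Serp2 (0.929) and Gemin7 (0.926). Mrgpra3 and Mrgprx1 thus named each other, and Mrgprd and Mrgprb5 had Klk5 in common.

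The matrix held 8 further rows of the family, from 18 to 5638 UMIs, of which 5 had at least 100. Mrgpra2b (2952 UMIs) and Mrgpra2a (1219 UMIs) are near copies that share 75.3% and 74.4% of their 55-base stretches with each other, so their split is uncertain. Mrgpra2b was at 22.9 ± 5.43 CPM in NP_Mrgpra3, 21.7 ± 2.72 in NP_Mrgprd and 18.1 ± 3.48 in NP_Nts, and Mrgpra2a was at 9.22 ± 1.11 CPM in NP_Mrgprd, 8.16 ± 3.43 in NP_Nts and 7.63 ± 3.16 in NP_Mrgpra3 (SD, n = 5). Neither was called different between any 2 NP types. Against all other cells both were higher in NP_Mrgprd, Mrgpra2a by 1.98 ± 0.175 and Mrgpra2b by 1.91 ± 0.186 in log2 fold change (SE, n = 5, edgeR adjusted p = 2.98e-07 and 7.95e-07), where 5.82% of 13265 genes were called higher. Mrgpra2b was also higher in NP_Mrgpra3, by 1.02 ± 0.185 (SE, edgeR adjusted p = 0.000445), where 3.12% of 11879 genes were called higher. Mrgpra1 (118 UMIs) was at 1.29 ± 1.29 CPM in NP_Mrgpra3, 0.989 ± 1.07 in NP_Nts and 0.753 ± 0.194 in NP_Mrgprd (SD, n = 5). Mrgpra9 (104 UMIs) had 83 of its UMIs in NP_Mrgprd and 17 in Th. Mrgpra6 (5638 UMIs) was spread over all 14 types, from 16.6 ± 3.61 CPM in satellite glia to 32.1 ± 7.59 in NF2_Ntrk2.Necab2 (SD, n = 5), and so unlike the members was also frequent in non-neuronal cells.

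The other genes of the pathway were counted over the lists of the analysis, with the members of each type's definition among them. Of 20 tested genes that act downstream of Gq- and Gi-coupled receptors, 4 were higher and 2 lower in NP_Mrgprd than in NP_Mrgpra3, where 5.02% and 7.14% of all genes were called. Trpv1, the heat- and capsaicin-gated channel, had a log2 fold change of -3.64 ± 0.239 (8.20 ± 4.41 against 102 ± 19.5 CPM) (edgeR adjusted p = 6.84e-11). Trpa1 (1.52), a channel for irritants, and Adrbk2 (2.42), a receptor kinase, were among those that were higher, and the other that was lower was Gnai1 (-1.69), a Gi subunit, in log2 fold change. These genes and the further ones given without CPM for small counts were named after their values were seen. Against NP_Nts, 7 were higher in NP_Mrgprd, where 10.2% of all genes were called higher, and 2 were lower, Trpv1 (-4.29) and Gnai1 (-1.09), beside 11.3% of all genes. In NP_Mrgpra3 against NP_Nts, 3 were called, all higher, among them Adrbk1 (1.97) and Arrb1 (1.04), in a contrast where 8.9% of all genes were called higher and 7.22% lower. The median log2 fold changes of this list were 0.16, 0.18 and 0.24 in the 3 contrasts, beside -0.027 to 0.0024 over all genes.

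Of 12 tested receptors and peptides of itch, 1 was higher and 3 lower in NP_Mrgprd than in NP_Mrgpra3, beside 5.02% and 7.14% of all genes. The largest were Hrh1 and Lpar3. Hrh1, the histamine H1 receptor, was at 0.187 ± 0.106 CPM in NP_Mrgprd and 22.3 ± 7.73 in NP_Mrgpra3 (SD, n = 5, edgeR adjusted p = 5.80e-13). Lpar3, a receptor for lysophosphatidic acid, was at 312 ± 45.3 and 5.30 ± 10.7 CPM in these types (SD, n = 5). Lpar3 is a listed NP_Mrgprd marker and, of the NP types, was high in NP_Mrgprd alone, so no test is given for it. Against NP_Nts, 2 were higher and 10 lower in NP_Mrgprd, beside 10.2% and 11.3% of all genes. The lower genes of this and the next contrast include Nppb, Sst, Nts, Il31ra and Osmr, the listed markers of NP_Nts. Their calls are not independent of the type. In NP_Mrgpra3 1 was higher and 9 lower than in NP_Nts, beside 8.9% and 7.22%. These included Sst (somatostatin), Nppb (natriuretic peptide B), Htr1f (a serotonin receptor), Npy2r (a neuropeptide Y receptor) and Il31ra (the receptor of interleukin 31), which were at 1010, 628, 382, 284 and 286 CPM in NP_Nts and at most at 2.63 CPM in NP_Mrgpra3. Lower in NP_Mrgprd than in NP_Mrgpra3 were also Osmr and S1pr1, higher than in NP_Nts were Lpar3 and Nmb, and Hrh1 was the 1 that was higher in NP_Mrgpra3 than in NP_Nts (log2 fold change 1.13). The list's medians were -0.45, -6.42 and -6.17. Of 10 genes of the NP lineage, 2 were higher, Gfra2 and Runx1, and 2 lower, among them Gfra1, in NP_Mrgprd than in NP_Mrgpra3, beside 5.02% and 7.14% of all genes. Gfra2, Cd55 and Ret were higher in NP_Mrgprd than in NP_Nts, beside 10.2% of all genes. There were 5 higher, among them Gfra1, Gfra2, Cd55 and Ret, and Runx1 was lower, in NP_Mrgpra3 than in NP_Nts, beside 8.9% and 7.22% of all genes. The medians were 0.18, 0.69 and 0.91. Gfra2, a receptor subunit for neurturin, was at 175 ± 8.36 CPM in NP_Mrgprd and 6.14 ± 9.80 in NP_Mrgpra3 (SD, n = 5). As a listed NP_Mrgprd marker, it too is given without a test. Lpar3 and Gfra2 stay in the counts above, as does Gfra1, a listed NP_Mrgpra3 marker. Their calls, like those of the NP_Nts markers, are not independent of the types.

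The type labels were checked against marker lists. The neuron markers Rbfox3, Tubb3, Snap25 and Uchl1 were higher in each neuron type than in glia and endothelial cells, and 3 of 4 satellite glia markers and 4 of 4 endothelial markers were highest in their own type. Of the 5 further NP_Mrgprd markers, Plxnc1, P2rx3 and Lpar3 were highest in that type, Gfra2 in Th and Scn11a in NP_Mrgpra3. Of the 4 further NP_Mrgpra3 markers, 1, Gfra1, was highest in that type, whereas Plxnc1 and P2rx3 were highest in NP_Mrgprd and Calca in PEP1_S100a11.Tagln2. All 5 markers of NP_Nts were highest in that type. Satellite glia had the highest level of the fibroblast marker Lum, at 56.9 CPM. Mast cells, which carry other receptors of the family, were sought with Cpa3, Cma1 and Kit, the listed markers with a row. Cpa3 and Cma1 were at most at 1.40 and 2.93 CPM in any type, and Kit reached 97.9 CPM in PEP1_Slc7a3.Sstr2. Of the macrophage markers, C1qa, C1qb and Csf1r were at most at 10.2 CPM in any type, and Lyz2 reached 44.1 CPM in endothelial cells.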

How the data were processed

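Cells of lumbar DRG were captured with the Chromium 3′ assay. Cell Ranger (mm10, UCSC gene model) was used by the authors to count UMIs, and Seurat to select, cluster and name the cells. The deposited matrix holds raw counts of UMIs per gene and cell, and a deposited table gives 1 type per cell as text. It spells NF_Calb1 as NF_Ca1b1. The 4 rows that name no mouse gene (143 UMIs) were left out. All 3352 cells were used, doublets were not called, and 0 columns of samples were left unused.

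UMIs were summed per type and library. Tests used edgeR 4.0.16 under R 4.3.3 (filterByExpr at defaults, TMM, quasi-likelihood test, Benjamini-Hochberg adjustment over all genes), in a fit of the 15 sums of the 3 NP types and in a fit of each type against all other cells. A gene was called at an adjusted p under 0.01 and at least 2-fold. The SE of an edgeR log2 fold change was derived from the test, as its absolute value divided by the square root of the F statistic. On simulated data for NP_Mrgpra3 against NP_Nts (10424 genes), only an adjusted p under 0.01 was asked, without the fold threshold. The test recovered 79 of 100 genes changed by 1 and 97 of 100 changed by 2 on the log2 scale, with 3 false calls. Unchanged genes had the same mean in all NP types, unlike the data, so these are not the rates of the calls above. CPM was compared as log2(CPM + 1). Shares of cells were thinned to 10000 UMIs per cell by the hypergeometric expectation. Intervals were exact at 95%, and 3 counts set the limit at 0. Both cover counting error only. Sums of the same library come from the same animal: after removal of group means their correlations across genes were 0.0256 to 0.453. The fit with the replicate block changed none of the members' calls.

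The members and gene lists were chosen with earlier results of these data known. Named were the members, other Mrgprs of at least 100 UMIs, the 5 called list genes with the largest change per NP contrast, and the 3 genes most alike per member. A few genes of the lists are not reported here. Alternatives were DESeq2 1.42.0, no filter, sums of at least 10 cells, a replicate block, an adjusted p under 0.05, no cells over 10% mitochondrial UMIs, other pseudocounts and summaries, and leaving out each library. Batches are not named in the labels. Gene models were from GENCODE vM21 and upstream sequences from RefSeq (GRCm38.p6). Scripts used Python, numpy and scipy.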

Additional observations from a re-analysis of the deposited data

Results flagged for a closer look

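Each member's CPM was examined over the 5 libraries with Dixon's ratio, in the 31 combinations of member and type with at least 10 UMIs, and 3 were past the 95% critical value of 0.71. Chance flags about 1 in 20 groups. All 3 were high values of library 2. Mrgprd was at 23.2 CPM in PEP1_S100a11.Tagln2 of library 2, with the nearest other library at 2.11. It was at 8.62 CPM in PEP1_Dcn of library 2, with the nearest other at 1.30. Mrgpra3 was at 3.66 CPM in NF_Calb1 of library 2, with the nearest other at 0.254. In PEP1_S100a11.Tagln2 and NF_Calb1 the UMIs lay in 2 cells and 1 cell with at least 10 of them.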

How the results depend on the processing

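The 36 values followed over the alternatives were recomputed 310 times, and 299 counted as unchanged. A called value then kept its direction and its side of the threshold, and an uncalled value stayed uncalled, whatever its sign. A count of calls moved by at most 1.5 times, and values without a fit moved by less than the spread. The uncalled difference of Mrgpre between NP_Mrgprd and NP_Nts did change sign, at -0.0729 to 0.187 without a library. None turned its direction past the threshold. With an adjusted p under 0.05, Mrgprd was called higher in NP_Mrgpra3 than in NP_Nts (1.43, edgeR adjusted p = 0.0452), and without a library that difference lay between 0.61 and 1.95. For Mrgpre in NP_Mrgpra3 against all other cells, leaving out a library gave 0.85 to 1.04. Thinning to 10000 UMIs moved the share of cells with a UMI to 86.9% for Mrgprd and 2.16% for Mrgprb5 in NP_Mrgprd, 4.91% for Mrgprx1 in NP_Mrgpra3 and 17.8% for Mrgpre in PEP1_Dcn. Asking for 2 UMIs gave 3.56% for Mrgprb5, 10.6% for Mrgprx1 and 30.7% for Mrgpre. A pseudocount of 0.1 CPM moved the difference of Mrgprx1 between NP_Mrgpra3 and PEP1_S100a11.Tagln2 to 2.82. With the replicate block (the pairing by library), Mrgpre was at -1.36 between NP_Mrgprd and NP_Mrgpra3 and at 1.33 between NP_Mrgpra3 and NP_Nts, and it changed no call of a member and no count of calls by over 1.5 times. Without library 4 or 5, Mrgprx1 did not pass the filter on low counts in the contrasts between the NP types and has no value there. Mrgprb4, Mrgprb5 and Mrgprx1 rest on 2, 217 and 129 UMIs, and library 1 gave 4 cells of NP_Mrgpra3.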
